A study of Mus musculus with 20 samples.

Results

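The genes described here mark the deep layers of the cerebral cortex. They are Fezf2, Crym, Bcl11b, Etv1 and Pcp4, which are known from layer 5, and Foxp2, Tle4 and Syt6, which are known from layer 6. The 8 genes were taken by name, and for each one the brightest probe set that the array annotation assigns to that symbol alone was used. Of the 8 genes 7 could be measured in this way, out of 18194 genes on the array. Etv1, an ETS transcription factor of layer 5 neurons, had 0 such probe sets, because each of its 3 probe sets is annotated with a further symbol, and no value is given for it.

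Layer 5 holds the large pyramidal neurons whose axons leave the cortex for the brainstem and spinal cord, among them the corticospinal neurons of motor cortex, and layer 6 holds neurons that project mainly to the thalamus. Fezf2 is a zinc finger transcription factor that specifies the subcerebral neurons of layer 5, and Bcl11b (CTIP2) acts downstream of it in the outgrowth of their axons. Motor cortex has a thick layer 5 and a thin layer 4, whereas primary sensory cortex has a prominent layer 4 that receives thalamic input.

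Pieces enriched for motor or sensory cortex were dissected from 10 female C57Bl6 mice and each was put on 1 Affymetrix array, 20 in all. EAE, experimental autoimmune encephalomyelitis, is a model of multiple sclerosis driven by immunity to myelin. The 6 EAE mice received MOG35-55 peptide, 100 µg in the flanks and 50 µg at the base of the tail, with 400 ng of Pertussis toxin on days 0 and 3, at 8 to 12 weeks of age. They had average grades from 2.5 to 3.5, with paraplegia, or monoplegia and paresis of the other hindlimb, and were taken on days 18 to 21 per the sample labels, or day 21 per the protocol. The 4 healthy mice were of the same age, strain and sex and shared cages with EAE mice, without a mock injection in the protocol, so the immunisation and the disease cannot be told apart. Each of the 2 cohorts held 3 EAE and 2 healthy mice. The areas were cut from 1 mm coronal slices with an atlas, so each sample holds all layers and all cell types of its piece.

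Values are log2 expression as deposited, and a difference of 1 is a 2-fold difference. Array medians lay between 8.22 and 8.32, and each array correlated on average at 0.989 to 0.997 with the others of its group across probe sets. The motor array of EAE mouse 1 and the sensory array of EAE mouse 3 had a narrower spread of values (SD 2.15 and 2.16) than the other 18 arrays (2.19 to 2.25), so the results that they change are also given without these mice. A gene is called here when its limma p, adjusted over all 18194 genes by Benjamini-Hochberg, is under 0.05. Slc17a7, the vesicular glutamate transporter of cortical excitatory neurons, had a mean over the arrays of 12.8. A single gene cannot show how much neighbouring tissue a piece held. Slc17a7 stood at 0.14 ± 0.06 (SE) for motor minus sensory cortex in EAE mice and at -0.0084 ± 0.08 in healthy mice, neither past the threshold. Of the same list of excitatory genes, Neurod6 was called higher and Emx1 lower in motor cortex in both conditions.

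The sequences just upstream of the starts of Fezf2, Bcl11b and Tle4 are shown for description. These genes were picked because the motor minus sensory differences of Tle4 varied across mice with those of Fezf2 and Bcl11b, as described further on. Any part of the sequences in that was not tested. The sequences are the 250 bases before the annotated start in RefSeq's GRCm38.p6, all on the minus strand. They lie at chr14:12345866-12346115 for Fezf2, chr12:108003415-108003664 for Bcl11b and chr19:14598184-14598433 for Tle4, the upstream one of its 2 annotated starts. Capitals mark matches on either strand to the TATA box (TATAAA), the CCAAT box (CCAAT), the GC box (GGGCGG) and an E-box (CACGTG), which do not overlap here. The Fezf2 and Bcl11b starts lie inside the span of a longer model of the same gene.
Fezf2: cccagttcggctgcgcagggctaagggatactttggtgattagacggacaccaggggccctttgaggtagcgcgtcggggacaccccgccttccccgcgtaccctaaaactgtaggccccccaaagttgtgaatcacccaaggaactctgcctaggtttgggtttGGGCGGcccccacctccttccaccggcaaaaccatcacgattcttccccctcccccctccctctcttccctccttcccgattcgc
Bcl11b: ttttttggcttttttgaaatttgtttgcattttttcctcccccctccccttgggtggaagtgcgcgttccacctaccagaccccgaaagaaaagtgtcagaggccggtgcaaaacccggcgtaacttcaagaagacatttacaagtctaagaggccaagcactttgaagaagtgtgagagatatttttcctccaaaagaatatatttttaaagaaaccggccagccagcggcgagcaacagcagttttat
Tle4: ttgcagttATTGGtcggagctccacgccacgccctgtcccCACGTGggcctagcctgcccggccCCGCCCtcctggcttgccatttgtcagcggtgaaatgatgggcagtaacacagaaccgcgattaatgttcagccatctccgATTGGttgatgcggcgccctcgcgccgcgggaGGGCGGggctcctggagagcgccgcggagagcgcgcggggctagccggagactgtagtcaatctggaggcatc
The Fezf2 window holds 1 match to GGGCGG, 61.2% G and C and 14 CpG. The Bcl11b window holds 0 matches, 44.8% G and C and 9 CpG. The Tle4 window holds 2 matches to CCAAT, 2 to GGGCGG and 1 to CACGTG, 65.2% G and C and 24 CpG. Over 32851 windows of 250 bases the motifs were found in 12.4% (TATAAA), 33.9% (CCAAT), 32.7% (GGGCGG) and 6.02% (CACGTG), and the median window had 52.4% G and C and 6 CpG. These matches describe letters and not binding sites. Of the 8 genes 6 had such a sequence, and Crym and Foxp2 did not.

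The main question was which of the deep layer genes differ between motor and sensory cortex of the same mouse. Fezf2, Crym and Bcl11b were higher in motor cortex, in EAE mice and in healthy mice, and in every one of the 10 animals. Crym had the widest difference of the 7 genes, at 2.70-fold in EAE mice and 3.53-fold in healthy mice. Pcp4 was also higher in each animal, by a small amount that did not pass the threshold, and the 3 layer 6 genes Foxp2, Tle4 and Syt6 were not called. In tissue pieces such as these, fewer cells of a type and less RNA per cell cannot be told apart.

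Crym encodes mu-crystallin, a cytosolic protein that binds thyroid hormone and is a known marker of corticospinal neurons. In motor cortex of EAE mice Crym ranged from 12.38 to 12.89 with a median of 12.57, and in sensory cortex of EAE mice it ranged from 10.72 to 11.67 with a median of 11.17. In healthy mice 1 to 4 it stood at 12.40, 12.09, 12.44 and 12.09 in motor cortex and at 10.19, 10.23, 10.50 and 10.80 in sensory cortex. All motor values lay above all sensory values in both conditions. The difference was 1.43 ± 0.16 (SE, 95% interval 1.08 to 1.78) in the 6 EAE mice, with a limma adjusted p of 0.000181. In the 4 healthy mice it was 1.82 ± 0.20 (1.39 to 2.25), with a limma adjusted p of 0.000333. Ordered by size, it was the second highest motor minus sensory difference of 18194 genes in EAE mice (rank 2) and the highest in healthy mice (rank 1).

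**Figure D1:**
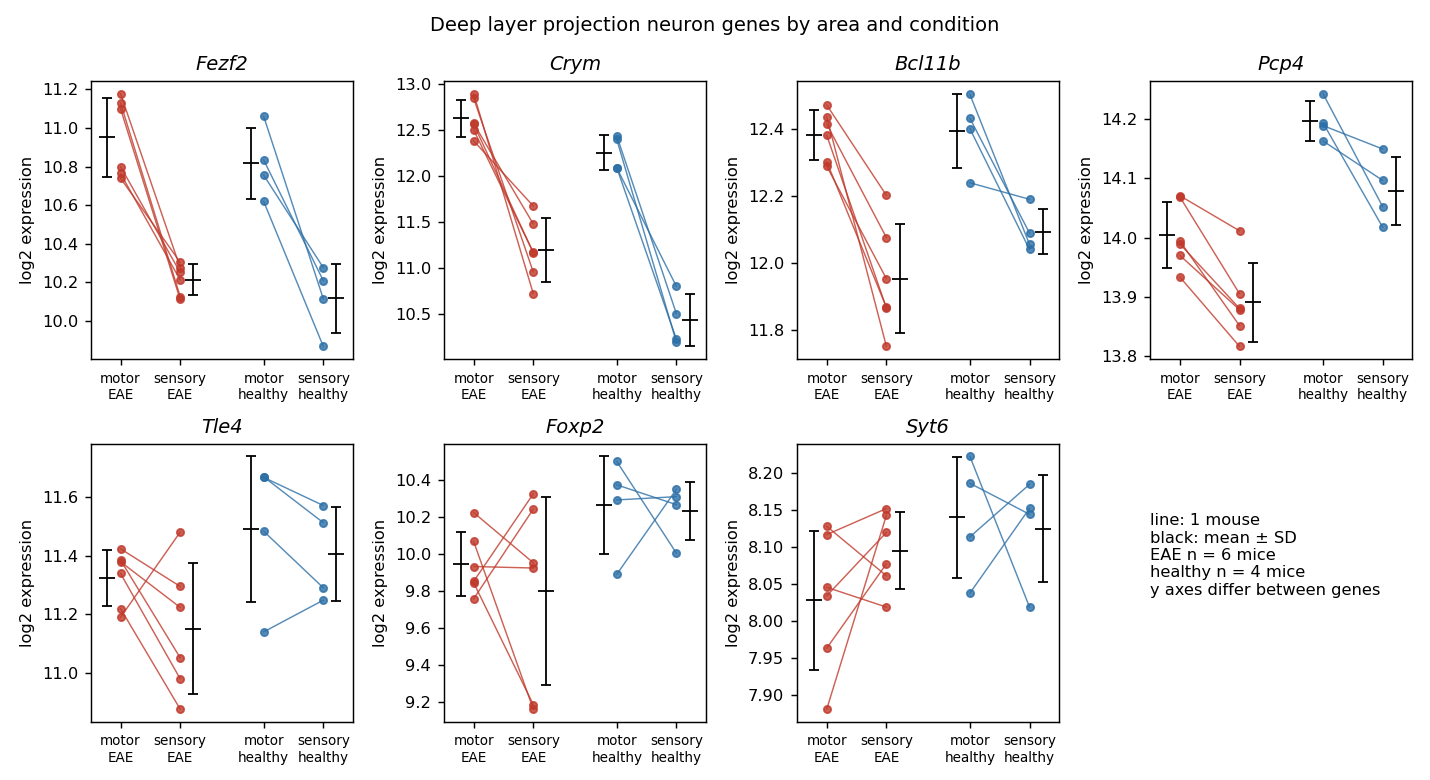
Log2 expression of the 7 measured genes in each array, with 1 panel per gene and a line joining the motor and the sensory array of a mouse; EAE mice (red, n = 6) stand left of healthy mice (blue, n = 4), and black bars give the mean ± SD. The lines of Fezf2, Crym and Bcl11b fall from motor to sensory cortex in all 10 mice, whereas those of Foxp2 and Syt6 cross.

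Fezf2 came next. In EAE mice it ranged from 10.74 to 11.18 in motor cortex (median 10.95) and from 10.11 to 10.30 in sensory cortex (median 10.23). In healthy mice 1 to 4 it stood at 11.06, 10.62, 10.83 and 10.76 in motor cortex and at 10.11, 9.87, 10.21 and 10.28 in sensory cortex. The areas did not overlap in either condition. Fezf2 was 0.74 ± 0.08 higher in motor cortex of EAE mice (SE, 95% interval 0.56 to 0.92, 1.67-fold, limma adjusted p 0.000188). Healthy mice gave 0.70 ± 0.10 (0.48 to 0.92, 1.63-fold, limma adjusted p 0.00209). Without the 2 healthy mice that have an array of the second processing day, the healthy value was 0.69 and no longer called (limma adjusted p 0.0724).

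Bcl11b had a smaller difference. In EAE mice it ranged from 12.29 to 12.47 in motor cortex (median 12.40) and from 11.75 to 12.20 in sensory cortex (median 11.91). In healthy mice 1 to 4 it stood at 12.40, 12.43, 12.50 and 12.24 in motor cortex and at 12.04, 12.09, 12.06 and 12.19 in sensory cortex. The areas were again apart, although healthy mouse 4 had only 0.05 between its motor and sensory values. The difference was 0.43 ± 0.06 in EAE mice (SE, 95% interval 0.29 to 0.56, 1.35-fold), with a limma adjusted p of 0.00113. Healthy mice gave 0.30 ± 0.08 (0.13 to 0.46, 1.23-fold) with a limma adjusted p of 0.0476, close to the threshold. That call was lost without healthy mouse 1, 2 or 3, at limma adjusted p of 0.202, 0.188 and 0.281, and without EAE mouse 2, 5 or 6, at 0.0677, 0.0676 and 0.0594, while the difference stayed between 0.25 and 0.38 whichever mouse was left out. It was also lost with probe sets averaged (0.29, limma adjusted p 0.0884), with an intensity trend (0.0622), with cohort as a covariate (0.0696), without the second processing day (0.39, 0.142) and within each cohort (0.338 and 0.416). The 3 other probe sets of Bcl11b had motor minus sensory values of 0.40 to 0.50 in EAE mice and 0.24 to 0.32 in healthy mice, each at an unadjusted limma p under 0.05.

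Pcp4 encodes a small calmodulin-binding protein that is abundant in layer 5 subcerebral neurons. In EAE mice it ranged from 13.93 to 14.07 in motor cortex (median 13.99) and from 13.82 to 14.01 in sensory cortex (median 13.88). In healthy mice 1 to 4 it stood at 14.19, 14.19, 14.24 and 14.16 in motor cortex and at 14.15, 14.02, 14.05 and 14.10 in sensory cortex. Motor cortex had the higher value in 6 of 6 EAE mice and 4 of 4 healthy mice, with overlap between the areas in EAE mice alone. The difference was 0.11 ± 0.04 in EAE mice (SE, limma adjusted p 0.101) and 0.12 ± 0.05 in healthy mice (limma adjusted p 0.224). After quantile normalization of the arrays the value in EAE mice was 0.12 and was called (limma adjusted p 0.0483). The highest value on any array was 15.1, so the Pcp4 probe set is close to the upper end of the scale.

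Tle4, a Groucho-type corepressor of corticothalamic neurons, was the member of the layer 6 genes nearest to the threshold. In EAE mice it ranged from 11.19 to 11.42 in motor cortex (median 11.36) and from 10.88 to 11.48 in sensory cortex (median 11.14). In healthy mice 1 to 4 it stood at 11.67, 11.67, 11.48 and 11.14 in motor cortex and at 11.51, 11.57, 11.29 and 11.25 in sensory cortex. The areas overlapped in both conditions. The motor minus sensory value was positive in 5 of 6 EAE mice and 3 of 4 healthy mice, and the difference was 0.17 ± 0.08 in EAE mice (SE, limma adjusted p 0.251) and 0.08 ± 0.09 in healthy mice (limma adjusted p 0.798). EAE mouse 1, at -0.29, stood apart from the other 5, at 0.13 to 0.36. Without it the EAE difference was 0.26 and was called (limma adjusted p 0.0173), and without EAE mice 1 and 3 it was 0.24 (limma adjusted p 0.0415). The 2 other probe sets of Tle4 stood at 0.07 and 0.21 in EAE mice and at -0.09 and -0.01 in healthy mice, none at an unadjusted limma p under 0.05.

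Foxp2, a forkhead transcription factor of layer 6 neurons that striatal neurons also express, differed widely between mice in both directions. In EAE mice it ranged from 9.76 to 10.22 in motor cortex (median 9.89) and from 9.16 to 10.32 in sensory cortex (median 9.94). In healthy mice 1 to 4 it was 10.37, 10.50, 10.29 and 9.89 in motor cortex and 10.26, 10.00, 10.31 and 10.35 in sensory cortex, so the areas overlapped in both conditions. Its motor minus sensory values were -0.47, 0.27, 0.66, 0.90, 0.01 and -0.48 in EAE mice 1 to 6 and 0.11, 0.50, -0.02 and -0.46 in healthy mice 1 to 4. The mean difference was 0.15 ± 0.17 in EAE mice (SE, 95% interval -0.23 to 0.52) and 0.03 ± 0.21 in healthy mice (-0.43 to 0.49), so the intervals include differences as large as those of Bcl11b. The 5 other probe sets of Foxp2 lay between -0.05 and 0.18 in EAE mice and between -0.11 and 0.20 in healthy mice, with 0 past an unadjusted limma p of 0.05. Syt6 encodes a synaptotagmin, a vesicle protein found in layer 6 neurons. Its values spanned 7.88 to 8.22 over all arrays, below or level with the medians, and detection calls were not among the data used. Its difference was -0.07 ± 0.05 in EAE mice (-0.18 to 0.05) and 0.01 ± 0.06 in healthy mice (-0.13 to 0.16). The 3 other probe sets of Syt6 lay between -0.16 and -0.0063 in EAE mice and between -0.02 and 0.12 in healthy mice. Of these, 1 was lower in EAE mice at an unadjusted limma p of 0.0323, with a low mean of 4.94, and 0 passed 0.05 in healthy mice.

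**Figure D2:**
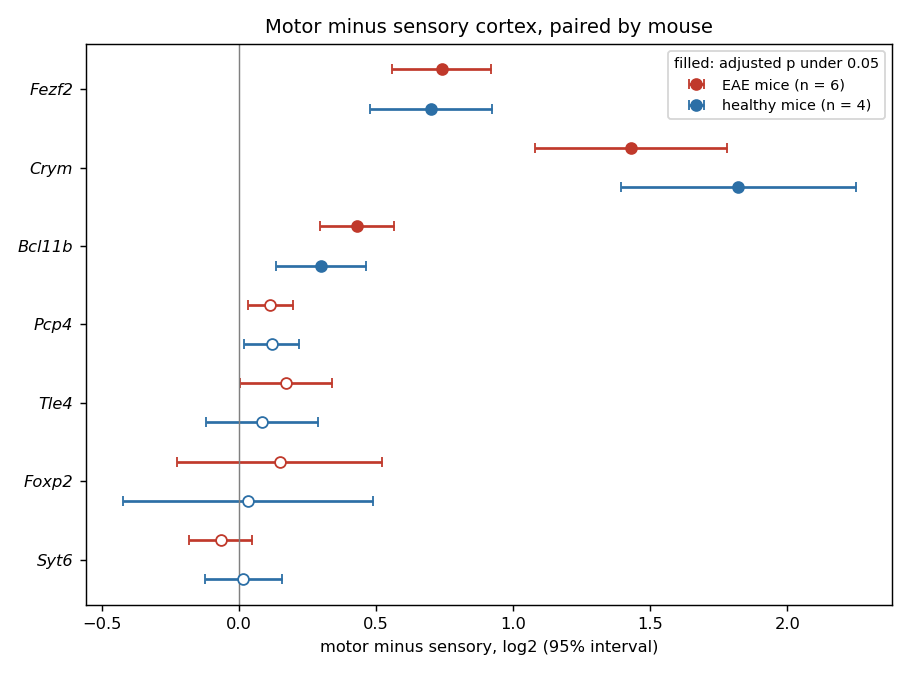
Motor minus sensory cortex in log2 for each of the 7 genes, paired by mouse, with 95% intervals; EAE mice (red, n = 6) are drawn above healthy mice (blue, n = 4) and filled points passed an adjusted p of 0.05. Crym, Fezf2 and Bcl11b lie to the right of 0 in both conditions, and the intervals of Foxp2 and Syt6 span 0.

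The members were chosen with earlier results of these data known, so the shares below are descriptions and not an independent test. Over the 7 measured genes, 3 were called higher and 0 lower in motor cortex of EAE mice. Of all genes, 3.59% were called higher and 3.11% lower there. The same 3 were called higher in healthy mice and 0 lower, against 2.29% and 1.65% of all genes, and 1.9% of all genes were called higher in both conditions. The median difference was 0.17 in EAE mice and 0.12 in healthy mice, beside 0.01 and 0.02 over all genes. Values in motor cortex exceeded those in sensory cortex in all 10 mice for 4 of the 7 genes and for 4.42% of all genes. Every motor value lay above every sensory value for 3 of the 7 genes in EAE mice, against 1.61% of all genes, and for 4 of the 7 in healthy mice, against 6.25%. The count of all genes called in healthy mice, 716, was 268, 362 and 263 without healthy mice 1, 2 and 3. Within cohort 1, with 3 EAE and 2 healthy mice, Crym was the 1 member called in each condition. Within cohort 2 none of the members was called in healthy mice, although Crym stood at 1.61, Fezf2 at 0.55 and Bcl11b at 0.25.

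Other genes of the cortical layers gave the surroundings of these values. A list held 13 further genes of layer 5 subcerebral neurons, also chosen with earlier results of these data known. Of these, 9 were higher in motor cortex and 0 lower, in EAE mice and in healthy mice alike. The list medians were 0.54 and 0.43. Over all genes, 3.59% were called higher in EAE mice and 2.29% in healthy mice. Without EAE mice 1 and 3 the counts were again 9 and 9, and they were 9 in EAE mice and between 6 and 9 in healthy mice whichever single mouse was left out. Within cohort 1 the count was 2 in EAE mice and 1 in healthy mice, within cohort 2 it was 3 in healthy mice, and without the second processing day it was 2 in healthy mice. The LIM domain binding protein gene Ldb2 was 1.00 ± 0.07 higher in EAE mice (SE, log2, limma adjusted p 5.83e-06) and 0.95 ± 0.08 in healthy mice (8.60e-05). Deptor, which inhibits the mTOR kinase, was 0.61 ± 0.04 and 0.55 ± 0.05 higher. Rbp4, the retinol carrier, was 0.54 ± 0.06 and 0.43 ± 0.08 higher, Lratd2 0.64 ± 0.08 and 0.64 ± 0.09, and the formin gene Diaph3 0.59 ± 0.08 and 0.73 ± 0.09. The 4 genes of the list that were not called were S100a10, Parm1, Cdh13 and Nefh, the heavy neurofilament chain, which was the only one of the 13 with a negative value (-0.22 ± 0.07 in EAE mice and -0.24 ± 0.09 in healthy mice).

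The layer 6 corticothalamic list had 9 measured genes and went both ways. Zfpm2, a transcriptional cofactor, was 0.78 ± 0.14 higher in motor cortex of EAE mice (SE, limma adjusted p 0.00481) and stood at 0.56 ± 0.17 in healthy mice (0.103). The collagen gene Col5a1 was lower in motor cortex, at -0.53 ± 0.07 in EAE mice (limma adjusted p 0.000407) and -0.60 ± 0.08 in healthy mice (0.00123). These were the only called genes of the list, whose medians were 0.06 and 0.15. Among 6 genes of layer 6b, the thin layer above the white matter, the nuclear receptor gene Nr4a2 was lower, at -1.95 ± 0.23 in EAE mice (limma adjusted p 0.000221) and -1.63 ± 0.28 in healthy mice (0.00546). It was the 1 called gene of that list, and the list medians were -0.20 and -0.13.

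Genes of layer 4 and the upper layers ran in the opposite direction. Of 13 measured, 9 were lower and 1 higher in motor cortex of EAE mice, and 7 were lower and 1 higher in healthy mice. The medians were -0.47 and -0.21. Over all genes, 3.11% were called lower in EAE mice and 1.65% in healthy mice. The count of lower genes was 4 in EAE mice and 2 in healthy mice within cohort 1, and 4 in healthy mice within cohort 2. Rorb, the nuclear receptor that defines layer 4, stood at -1.21 ± 0.06 in EAE mice (SE, limma adjusted p 5.25e-07) and -1.11 ± 0.07 in healthy mice (1.00e-05). The netrin receptor gene Unc5d stood at -0.86 ± 0.06 and -0.73 ± 0.07, the homeobox gene Cux1 at -0.65 ± 0.06 and -0.67 ± 0.07, and the potassium channel subunit gene Kcnip2 at -0.53 ± 0.04 and -0.63 ± 0.05, all called lower in both conditions. The LIM-only gene Lmo4 was the 1 gene called higher, by 0.43 ± 0.04 in EAE mice and 0.35 ± 0.05 in healthy mice.

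**Figure D3:**
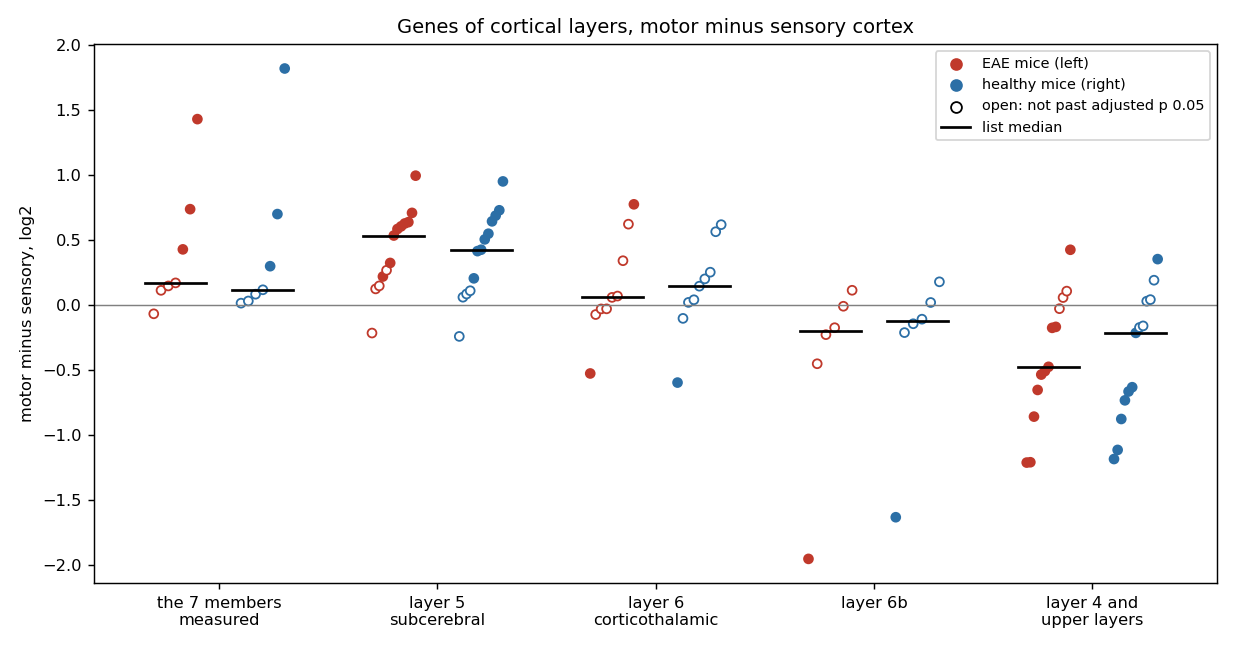
Motor minus sensory cortex in log2 for single genes (points) of 5 gene groups, EAE mice (red) left of healthy mice (blue) in each group; filled points passed an adjusted p of 0.05 and black lines are group medians. The layer 5 points lie mostly above 0 (medians 0.54 and 0.43) and the layer 4 and upper layer points mostly below it (medians -0.47 and -0.21).

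Markers of neighbouring tissue were examined because Foxp2 and Bcl11b are also genes of the striatum. Of 11 measured striatal genes 1 was higher and 1 lower in each condition. Tac1, a neuropeptide precursor that cortical interneurons and striatal neurons share, was 0.87 ± 0.10 higher in motor cortex of EAE mice and 0.89 ± 0.12 in healthy mice (SE). Ppp1r1b (DARPP-32) was lower, at -0.48 ± 0.05 and -0.45 ± 0.06. The dopamine receptor gene Drd2 stood at -0.03 ± 0.09 and -0.12 ± 0.11. The striatal list mean spanned 9.45 to 9.62 in motor and 9.42 to 9.74 in sensory cortex of EAE mice, and 9.59 to 9.97 in motor and 9.52 to 10.0 in sensory cortex of healthy mice. Among 8 thalamic genes Slc17a6, a glutamate transporter, was lower in motor cortex, at -1.27 ± 0.08 in EAE mice and -1.27 ± 0.10 in healthy mice. Rora was also lower, at -0.40 ± 0.06 and -0.44 ± 0.07. The tissue or cells behind the Slc17a6 and Rora differences were not tested. None of 9 oligodendrocyte genes was called, with Mbp at -0.10 and -0.02 and Mog at -0.15 and -0.10.

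The motor minus sensory values of Foxp2 and Tle4 were set beside those of the tissue lists in each mouse. The mean of the layer 6 list, motor minus sensory, was negative in EAE mice 1 and 6 (-0.10 and -0.28) and healthy mouse 4 (-0.12), and positive in the other 7 mice, at 0.16 to 0.49. In these 3 mice Foxp2 was also negative, at -0.47, -0.48 and -0.46, and Tle4 stood at -0.29, 0.16 and -0.11. The same 3 mice had the lowest layer 6b means, at -0.76, -0.89 and -0.71, and the lowest oligodendrocyte means, at -0.39, -0.24 and -0.21. Of the layer 6b genes only Nr4a2 was called between the areas, at -1.95 in EAE mice and -1.63 in healthy mice. Its part in the layer 6b means was not tested. The striatal mean was lowest in EAE mice 6 and 1, at -0.26 and -0.19, and stood at -0.0065 in healthy mouse 4. The part of these lists in the Foxp2 and Tle4 values was not tested. In the same 3 mice Crym stood at 1.33, 0.71 and 1.29, Fezf2 at 0.44, 0.55 and 0.48, and Bcl11b at 0.27, 0.34 and 0.05. These values were positive, and some were the lowest of their condition. EAE mouse 1 had the lowest Fezf2 and Bcl11b values of the EAE mice, and EAE mouse 6 the lowest Crym value. Healthy mouse 4 had the lowest values of all 3 genes among the healthy mice. The motor array of healthy mouse 4 was of the second processing day and its sensory array of the first. The part of the processing day in its values was not tested. Crym in EAE mouse 1, at 1.33, was above EAE mice 2 and 6, at 1.09 and 0.71.

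**Figure D4:**
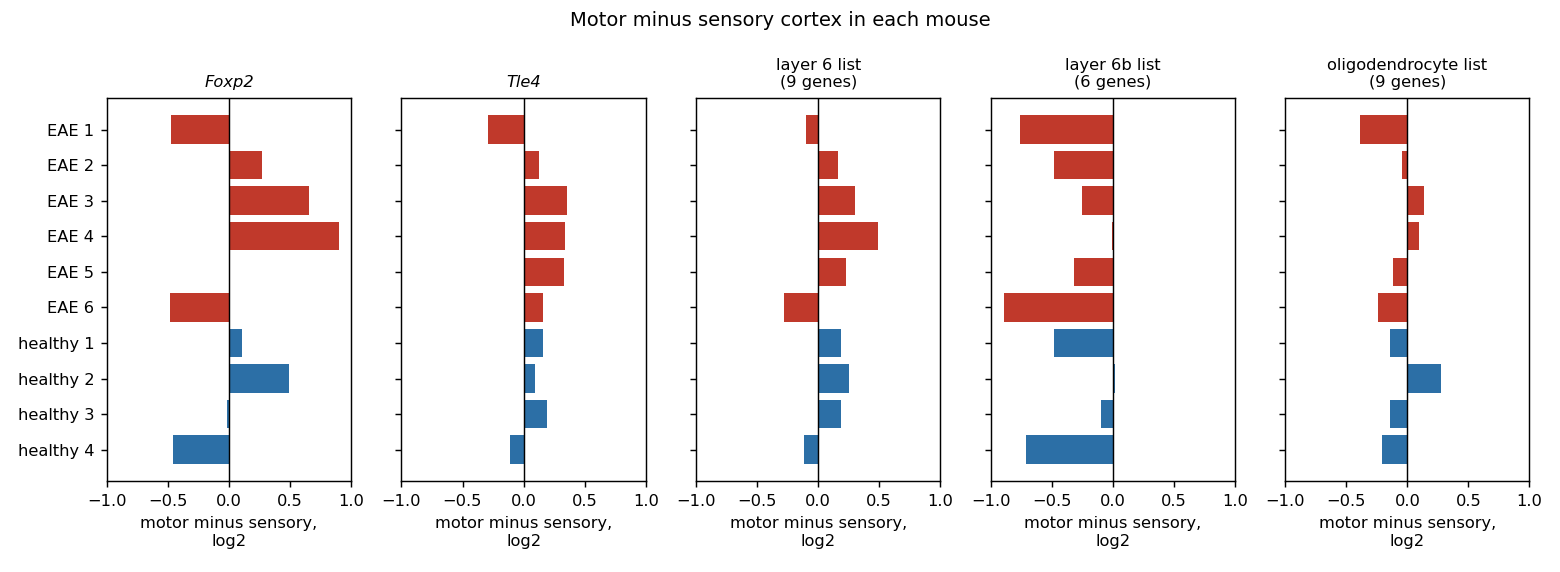
Motor minus sensory cortex in log2 in each mouse (rows, EAE above healthy) for Foxp2, Tle4 and the means of the layer 6, layer 6b and oligodendrocyte lists. EAE mice 1 and 6 and healthy mouse 4 have negative bars for Foxp2 and for all 3 lists. Of the layer 6b genes only Nr4a2 was called between the areas.

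Over the 10 mice, the motor minus sensory differences of the 7 genes were compared in 21 pairs. Fezf2 and Tle4 varied together, with Pearson's r = 0.81 (permutation p 0.00146, adjusted over 21 pairs 0.0307) and Spearman's rho = 0.85 (p 0.00271, adjusted 0.0285), and r = 0.71 without the 2 mice farthest from the median of Fezf2. Bcl11b and Tle4 gave r = 0.77 (permutation p 0.0104, adjusted 0.0730) and rho = 0.92 (p 0.000560, adjusted 0.0118), with r = 0.84 without the 2 farthest mice. The remaining 19 pairs did not pass after adjustment by either measure, Fezf2 and Crym among them at r = 0.63 (permutation adjusted p 0.157). Each cohort holds 5 mice, too few for a value within it, and the EAE and healthy mice are pooled here. All genes of a mouse come from the same 2 arrays. How many of all genes vary as closely with these members was not examined, so the pairs are not shown to be particular. None of the 4 motifs searched is in all 3 printed windows of Fezf2, Bcl11b and Tle4, and a shared regulation of these genes was not tested.

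Across the 20 arrays, which share mice and areas, the levels of Fezf2 and Crym correlated at r = 0.92, those of Fezf2 and Bcl11b at 0.79, those of Crym and Bcl11b at 0.77 and those of Foxp2 and Tle4 at 0.75. The gene outside the group most like Crym was Slc5a5, the sodium iodide symporter (r = 0.97), and then Rasal1, a Ras GTPase-activating protein (0.96). For Fezf2 they were Adcyap1, the neuropeptide PACAP (0.94), and Dkk3 (0.94). For Bcl11b they were the R-spondin gene Rspo2 (0.96) and the somatostatin receptor gene Sstr4 (0.95). Pcp4 was most like the myosin light chain gene Myl4 (0.93) and Shisa4 (0.91). Foxp2 was most like Bmpr1b, a bone morphogenetic protein receptor (0.89), and Hs3st4 (0.89), a heparan sulfate sulfotransferase gene that is also on the layer 6 list. Tle4 was most like Far1 (0.90) and Rap2c (0.90), and Syt6 like Arap1 (0.72) and Abi3 (0.68). These are descriptions of likeness in 20 arrays.

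Whether the area differences themselves differed between EAE and healthy mice was tested in the same fit. Limma called 0 of 18194 genes (0%), with 465 genes (2.56%) at an unadjusted p under 0.05, and 0 genes under each alternative setting run. All 7 members had a limma adjusted p of 1.00. Crym had the largest value, a motor minus sensory difference lower by 0.39 in EAE mice (-0.39 ± 0.26, SE, 95% interval -0.94 to 0.16, unadjusted limma p 0.152). The other 6 lay between -0.08 and 0.13, with intervals of -0.25 to 0.32 for Fezf2 and -0.08 to 0.34 for Bcl11b.

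EAE and healthy mice were also set against each other within each area, with cohort as a covariate. No member was called in motor cortex, where 0.517% of all genes were called higher and 1.74% lower, or in sensory cortex, where 0.901% were higher and 1.51% lower. Crym had the largest positive value in each area and Pcp4 was the most evenly lower gene. The count of called genes ranged from 145 without healthy mouse 1 to 470 without EAE mouse 1 in motor cortex. In sensory cortex it ranged from 19 without healthy mouse 4 to 1009 without EAE mouse 1. The counts thus changed with the mouse left out. Such fits also hold fewer mice, and the part of that was not told apart from the part of single mice.

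Crym stood at 12.63 ± 0.20 in motor cortex of EAE mice (SD, n = 6) and 12.25 ± 0.19 in that of healthy mice (SD, n = 4). In sensory cortex it stood at 11.19 ± 0.34 in EAE mice and 10.43 ± 0.28 in healthy mice. The ranges overlapped in each area, in sensory cortex through healthy mouse 4, at 10.80, and the lowest EAE mouse, at 10.72. The difference was 0.37 ± 0.11 in motor cortex (SE, limma adjusted p 0.103) and 0.76 ± 0.19 in sensory cortex (0.0628). It was called without EAE mouse 6 in motor cortex (0.44, limma adjusted p 0.0415) and without EAE mouse 4 in sensory cortex (0.88, limma adjusted p 0.0454). In each area the other 9 of 10 fits with a mouse left out did not call it. Their limma adjusted p reached 0.304 in motor and 0.190 in sensory cortex.

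Pcp4 stood at 14.00 ± 0.05 in motor cortex of EAE mice (SD, n = 6) and 14.20 ± 0.03 in that of healthy mice (SD, n = 4). In sensory cortex it stood at 13.89 ± 0.07 in EAE mice and 14.08 ± 0.06 in healthy mice. All EAE values lay below all healthy values in each area, which held for 4.19% of all genes in motor and 4.04% in sensory cortex. The difference was -0.19 ± 0.05 in motor cortex (SE, limma adjusted p 0.0695) and -0.19 ± 0.05 in sensory cortex (0.0873).

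Averaging the motor and sensory arrays of each mouse, a step added after the values by area had been seen, called 2 of the 7 genes, against 2.23% of all genes called higher and 5.64% lower. Crym rose by 0.57 ± 0.07 (SE, 95% interval 0.42 to 0.71, 1.48-fold, limma adjusted p 0.00224), and it was called whichever mouse was left out. Without the 2 healthy mice of the second processing day it stood at 0.60 (limma adjusted p 0.0641), and within cohorts 1 and 2 at 0.68 (0.236) and 0.46 (0.0300). Pcp4 fell by 0.19 ± 0.04 (limma adjusted p 0.0175). That call was lost without healthy mouse 1, 3 or 4, at limma adjusted p of 0.0588, 0.0544 and 0.0501, without the second processing day (0.176), and within each cohort (0.363 and 0.172).

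The layer 6 genes had negative values in EAE mice that were not called. Foxp2 stood at -0.32 ± 0.11 in motor cortex (SE, limma adjusted p 0.167) and -0.43 ± 0.24 in sensory cortex (0.363). Of its 5 other probe sets, 3 were lower in motor cortex at an unadjusted limma p under 0.05, and 0 in sensory cortex. In sensory cortex these 5 spanned -0.55 to 0.05. Tle4 stood at -0.17 ± 0.09 in motor cortex (limma adjusted p 0.410) and -0.25 ± 0.10 in sensory cortex (0.193). Its 2 other probe sets stood at -0.61 and -0.27 in sensory cortex, both at an unadjusted limma p under 0.05. In motor cortex they stood at -0.31 and -0.19, with 1 at an unadjusted limma p under 0.05. With the probe sets of a gene averaged, Tle4 was -0.22 in motor cortex and was called (limma adjusted p 0.0469). For Fezf2 the values were 0.13 ± 0.11 in motor cortex and 0.10 ± 0.08 in sensory cortex, for Bcl11b -0.01 ± 0.06 and -0.14 ± 0.08, and for Syt6 -0.11 ± 0.06 and -0.03 ± 0.05.

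**Figure D5:**
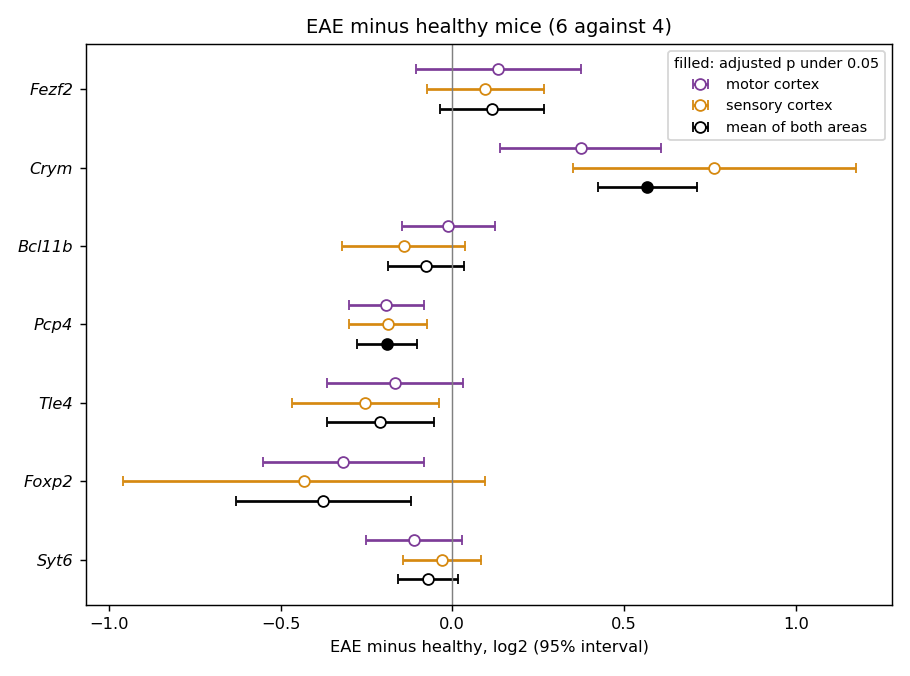
EAE minus healthy mice in log2 for each of the 7 genes in motor cortex (purple), sensory cortex (orange) and the mean of both areas (black), with 95% intervals; filled points passed an adjusted p of 0.05. Crym lies to the right of 0 and Pcp4 to the left in each case, and these 2 genes are filled for the mean of both areas.

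In the layer 5 list, 0 of 13 genes were called higher and 2 lower in motor cortex of EAE mice, and 1 higher and 1 lower in sensory cortex. Over all genes, 0.517% were called higher and 1.74% lower in motor cortex, and 0.901% and 1.51% in sensory cortex. Rbp4 fell by 0.33 ± 0.08 in motor cortex (SE, limma adjusted p 0.0406) and fell by 0.44 ± 0.08 in sensory cortex (0.0235). Vat1l fell by 0.32 ± 0.07 in motor cortex (0.0301), and Npr3, the natriuretic peptide clearance receptor, rose by 0.38 ± 0.08 in sensory cortex (0.0401). In the layer 6 list 1 of 9 genes was called in motor cortex, the neurotensin receptor gene Ntsr1, which fell by 0.42 ± 0.09 (limma adjusted p 0.0371), and 0 in sensory cortex. The list medians were -0.03 and -0.05 for layer 5 and -0.13 and -0.20 for layer 6, in motor and sensory cortex, beside -0.0077 and 0.00078 over all genes. Oligodendrocyte genes had medians of -0.41 in motor cortex (0 higher and 4 lower of 9) and -0.37 in sensory cortex (0 higher and 1 lower). Their mean level spanned 11.2 to 11.5 in motor and 11.1 to 11.7 in sensory cortex of EAE mice, and 11.5 to 12.0 in motor and 11.7 to 11.8 in sensory cortex of healthy mice. The mean of 6 microglial genes spanned 9.64 to 9.87 in motor and 9.42 to 9.99 in sensory cortex of EAE mice, and 10.07 to 10.24 in motor and 9.98 to 10.23 in sensory cortex of healthy mice. Of these, 0 were called higher and 2 lower in motor cortex, and 0 higher and 1 lower in sensory cortex. P2ry12, a purinergic receptor of resting microglia, fell by 0.97 ± 0.11 in motor cortex (SE, limma adjusted p 0.00152) and fell by 0.98 ± 0.15 in sensory cortex (0.0187). None of 6 astrocyte genes was called in either area, with Gfap at 0.65 ± 0.23 in motor cortex (0.176) and 0.97 ± 0.24 in sensory cortex (0.0645). The mean of the 11 striatal genes was 9.56 in motor and 9.56 in sensory cortex of EAE mice. In healthy mice it was 9.72 and 9.71. No striatal gene was called in either area. The part of these cell types and of the striatal genes in the deep layer values was not tested.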

How the data were processed

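Affymetrix arrays of motor and sensory cortex from 6 EAE and 4 healthy mice were analysed. The deposited values are log2 expression between 3.79 and 15.1. Per the submitters' processing notes, RMA and Partek were used, and their versions are not given. RMA summarises several probes per probe set and compresses small differences at low signal. Groups, mice, cohorts and processing days come from the labels.

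The platform annotation gave probe sets their names: 34958 had 1 symbol, 932 several and 9211 were not listed. Of these, 34754 were matched through Entrez identifiers to RefSeq's GRCm38.p6 gene table, where 0 symbols changed. The brightest single-symbol probe set stood for each of 18194 genes.

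Tests used limma 3.58.1 (lmFit and eBayes, two-sided) in R 4.3.3, which was tested on simulated data, with Benjamini-Hochberg adjustment over all genes. Printed adjusted p are from limma unless called permutation p. For motor against sensory cortex each mouse's difference was fitted, with 1 mean per condition and a spread shared over 10 mice. EAE and healthy mice were compared per area with cohort as a covariate. The pairing comes from the labels' animal numbers. The deviations of a mouse's 2 arrays from their group means correlated at 0.13 to 0.59, apart from EAE mouse 3 (-0.06) and healthy mouse 3 (0.0028). No 2 arrays were identical (smallest root mean square difference 0.145). The samples of a group are separate mice, and their number limits the precision.

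The members and the 15 other lists (120 genes, 116 measured) were chosen with earlier results of these data known. The text names all members, up to 4 called genes with the smallest p per list and area comparison, a few fixed markers and the 2 genes most like each member. The layer 5 genes named as not called, Lmo4, Zfpm2's value in healthy mice, and the genes named for EAE against healthy were chosen after their values were seen. No set test was run. Alternatives covered normalization, filtering, probe set choice, processing day, cohort, block and single mice.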

Additional observations from a re-analysis of the deposited data

Results flagged for a closer look

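Among 42 sets of values (levels and area differences of the 7 genes in groups of 4 or 6 mice), 1 held a value that stood apart by the gap test of Dixon, and chance flags about 1 in 20 such sets. It was the motor minus sensory difference of Tle4 in EAE mouse 1, at -0.29, whereas the other 5 EAE mice lay between 0.13 and 0.36. The gap was 0.645 of the whole range. The motor array of this mouse is one of the 2 arrays with a narrower spread of values, and its oligodendrocyte and layer 6b list means were also lower in motor cortex, by values of -0.39 and -0.76. The part of either in the Tle4 value was not tested.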

How the results depend on the processing

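Crym and Fezf2 kept their motor minus sensory calls in EAE and healthy mice whichever mouse was left out. The number of genes called in EAE mice, 1220, was 728 in a fit on EAE mice alone, and 62 and 393 within cohorts 1 and 2, and 1 member was called within cohort 1. In healthy mice, 716 genes became 115 without the second processing day, 1338 in a fit on healthy mice alone, 20 and 56 within cohorts 1 and 2, and 263 to 914 with a mouse left out. Members called there were 1 without that day, 1 within cohort 1 and 0 within cohort 2. Treating arrays as independent (no replicate block) gave 873 genes and 3 members in EAE mice and 518 genes and 3 members in healthy mice.

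For EAE minus healthy in motor cortex, 410 genes became 194 without the second day, 9 and 16 within cohorts, and 145 to 470 with a mouse left out. Members called were 1 after quantile normalization, 1 without dim genes, 1 with probe sets averaged, 2 with an intensity trend, and 0 to 1 with a mouse left out. In sensory cortex, 438 genes became 671 without dim genes, 118 without the second day, 831 with a trend, 0 and 141 within cohorts, 1366 without EAE mice 1 and 3, and 19 to 1009 with a mouse left out. Members called were 1 without dim genes, 2 with a trend, 1 with no cohort term and 0 to 1 with a mouse left out. Per area, the fit without the second day is the fit without healthy mouse 4 in motor and without healthy mouse 1 in sensory cortex. The day and the mouse cannot be told apart there. For the mean of both areas, 1431 genes became 6 without the second day, 0 and 574 within cohorts, 2447 without EAE mice 1 and 3, and 472 to 1813 with a mouse left out. Members called were 0 without the second day, 0 and 1 within cohorts, and 1 to 2 with a mouse left out. The mean of both areas and the settings without EAE mice 1 and 3 were chosen after seeing the data.

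EAE and healthy mice of 1 number are different animals, and their deviations correlated at 0.11 to 0.34 in motor and -0.28 to 0.45 in sensory cortex. With the mouse number as a replicate block, 389 genes were called in motor cortex, 5 in sensory cortex and 919 for the mean of both areas, with 0, 0 and 3 members.

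Values that changed sign were not called on either side. For motor minus sensory in healthy mice they were Foxp2 at -0.24 and Syt6 at -0.093 within cohort 2, and Tle4 at -0.0072 with probe sets averaged. For the difference between conditions they were Fezf2 at -0.19, Foxp2 at -0.15 and Tle4 at -0.060 within cohort 1, Syt6 at 0.048 within cohort 2 and Foxp2 at -0.091 without the second day. For EAE minus healthy they were Bcl11b in motor cortex at 0.0060 after quantile normalization, 0.032 with the number as block and 0.0059 within cohort 1, Tle4 in motor cortex at 0.016 within cohort 2, Fezf2 in sensory cortex at -0.043 within cohort 2, and Syt6 there at 0.041 with probe sets averaged and 0.023 within cohort 1. With a mouse left out, motor minus sensory of Foxp2 ranged from -0.0039 to 0.27 in EAE mice and -0.12 to 0.19 in healthy mice, and of Syt6 from -0.048 to 0.058 in healthy mice. The difference between conditions ranged from -0.036 to 0.12 for Fezf2, -0.047 to 0.27 for Foxp2 and -0.030 to 0.020 for Pcp4, and Bcl11b in motor cortex from -0.058 to 0.043. The cause was not tested. Fits within cohorts and with mice left out hold fewer mice. The second processing day holds 2 arrays, the motor array of healthy mouse 4 and the sensory array of healthy mouse 1. It could be examined only by leaving them out. Signal over background was not measured, and Syt6 lay near the array medians.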

Other observations

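Single genes of the other cell lists were called between the areas. Gfap, the astrocyte filament, was lower in motor cortex, at -0.72 ± 0.08 in EAE mice (SE, log2, limma adjusted p 0.000146) and -0.41 ± 0.10 in healthy mice (0.0356), and Aqp4, the water channel of astrocytes, at -0.25 ± 0.05 in EAE mice. The parvalbumin gene Pvalb was lower in both conditions, at -0.35 ± 0.06 and -0.37 ± 0.08, and somatostatin, Sst, was 0.21 ± 0.05 higher in EAE mice. Of the pan-excitatory genes Neurod6 was higher, by 0.49 ± 0.11 and 0.55 ± 0.13, and Emx1 lower, at -0.28 ± 0.06 and -0.30 ± 0.07. Spink8, a hippocampal pyramidal marker, was 1.12 ± 0.10 higher in motor cortex of EAE mice and 0.50 ± 0.12 in healthy mice. In EAE mice the claustrum list had Ntng2 at -0.26 ± 0.07 and Gnb4 at -0.60 ± 0.16, the choroid plexus and meninges list had Ttr at -0.39 ± 0.10, Dcn at -0.46 ± 0.11 and Igf2 at -0.55 ± 0.11, and the vascular list had Acta2 at -0.26 ± 0.05, all called lower. In healthy mice 0 genes of these 3 lists were called, and the difference between the conditions was not called for any gene. No microglial gene was called between the areas in either condition.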
